A study of Mus musculus with 4 samples.

Results

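The genes described here encode nuclear subunits of the oxidative phosphorylation machinery, complexes I to V of the mitochondrial inner membrane. They were taken from the deposited count tables by symbol, leaving out assembly factors, pseudogenes and a few paralogs. Cyc1, the gene of cytochrome c1 in complex III, did not match the symbols used and was counted with the electron carriers. This gave 74 of the 24016 gene symbols: 36 in complex I, 4 in complex II, 8 in complex III, 11 in complex IV and 15 in complex V. Ndufa4 was counted with complex IV, since its protein is now known as a subunit of that complex in spite of its name. All 74 passed the filter on low counts, among 14853 genes tested, with 496 to 48723 reads per gene and library.

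The libraries were made from hematopoietic stem cells of the bone marrow of C57BL/6 mice at 4 months of age. There were 2 libraries of wild-type (WT) mice, while the group carrying the NHD13 transgene, a fusion of NUP98 with HOXD13 used as a model of myelodysplastic syndrome, had 2. Cells were sorted as negative for lineage markers, CD34 and Flt3, and as carrying CD150, c-Kit and Sca-1. In the published line the transgene is driven by Vav1 elements, which act across blood cells; the labels do not name the promoter. Whether each library stands for its own animal is not in the labels, so the p-values given cover just the spread among these samples, which may be technical.

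Complex I (NADH dehydrogenase) and complex II (succinate dehydrogenase) pass electrons to ubiquinone, complex III passes them on to cytochrome c, and complex IV (cytochrome c oxidase) hands them to oxygen. The proton gradient built on the way drives complex V, the ATP synthase. Quiescent hematopoietic stem cells are known for relying on glycolysis and for low mitochondrial respiration, which rises as they enter the cycle and differentiate. Subunits encoded by mitochondrial DNA were not analysed here.

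Promoters of subunit genes are shown first, because genes of this machinery are known to share sites for NRF1, for ETS factors such as GABP and for YY1. The windows are RefSeq promoters of build GRCm38.p6, not the build mm9 that the submitters' notes name, and 63 of the 74 genes had one. Each was searched over 300 bases, from 250 before to 50 after the start, on both strands for GCGCA and GCGC with any 1 base between them (NRF1), AANATGGC (YY1) and CCGGAAG (ETS); no matches of different motifs overlapped. The NRF1 letters were in the windows of 17 genes, 26.98 percent, against 5.19 percent of all 27025 genes with a window. The YY1 letters were in 17 as well (26.98 against 6.96 percent) and the ETS letters in 16 (25.4 against 9.93 percent). At least 1 of the 3 was found for 43 genes, 68.25 percent against 19.45 percent of all genes. All genes here include many that did not pass the filter on low counts, and no share matched for level was computed. Letters that match describe a sequence, not a bound site.

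Below, 200 bases from 170 before to 30 after the start are printed 5′ to 3′, with matches in capitals. Sdha and Cox6a1 are shown because they held repeated NRF1 letters, Atp5b for its YY1 letters, and Ndufa4, Ndufa1 and Cox5a because their transcripts had the largest log2 fold changes above 0 while their windows held none of the 3 motifs.
Sdha (chr13:74350211-74350410, minus strand): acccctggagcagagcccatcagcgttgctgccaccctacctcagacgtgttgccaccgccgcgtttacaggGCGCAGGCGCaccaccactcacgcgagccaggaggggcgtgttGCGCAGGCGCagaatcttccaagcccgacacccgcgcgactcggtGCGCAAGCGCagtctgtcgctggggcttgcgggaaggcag
Cox6a1 (chr5:115348929-115349128, minus strand): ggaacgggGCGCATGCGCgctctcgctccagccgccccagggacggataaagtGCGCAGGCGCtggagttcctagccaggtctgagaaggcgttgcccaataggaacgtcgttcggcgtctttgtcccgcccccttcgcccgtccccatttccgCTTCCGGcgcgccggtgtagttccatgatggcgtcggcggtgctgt
Atp5b (chr10:128083137-128083336, plus strand): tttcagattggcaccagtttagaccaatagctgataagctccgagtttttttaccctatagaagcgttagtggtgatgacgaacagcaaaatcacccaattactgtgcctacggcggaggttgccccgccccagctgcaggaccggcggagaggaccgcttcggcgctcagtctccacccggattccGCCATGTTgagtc
Ndufa4 (chr6:11907421-11907620, minus strand): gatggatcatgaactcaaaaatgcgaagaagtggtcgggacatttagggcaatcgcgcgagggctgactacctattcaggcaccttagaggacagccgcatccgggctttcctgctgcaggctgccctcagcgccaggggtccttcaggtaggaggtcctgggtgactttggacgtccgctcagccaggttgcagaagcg
Ndufa1 (chrX:37191209-37191408, minus strand): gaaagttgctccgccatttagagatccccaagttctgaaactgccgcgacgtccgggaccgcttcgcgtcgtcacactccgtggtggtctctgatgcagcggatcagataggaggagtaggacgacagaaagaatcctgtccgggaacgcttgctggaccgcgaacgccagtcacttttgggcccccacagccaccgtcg
Cox5a (chr9:57521062-57521261, plus strand): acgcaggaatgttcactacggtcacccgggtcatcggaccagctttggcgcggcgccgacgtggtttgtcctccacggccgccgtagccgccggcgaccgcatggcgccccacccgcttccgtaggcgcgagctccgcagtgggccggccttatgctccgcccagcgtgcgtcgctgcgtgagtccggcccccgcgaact

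By complex, the NRF1, YY1 and ETS letters were found for 7, 12 and 4 of 32 complex I genes and for 6, 4 and 5 of 14 complex V genes. In complex IV they were found for 1, 1 and 3 of 9 genes, and 5 of the 9 had none of the 3. The median log2 fold change was 0.06 in the 43 genes with a match and 0.06 in the 20 without.

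The comparison of NHD13 with WT asked whether transcripts of the respiratory chain differ between stem cells of the 2 genotypes. No subunit gene was called by edgeR's quasi-likelihood test at an adjusted p under 0.05, against 4.28 percent of all genes tested (2.07 percent higher and 2.22 percent lower in NHD13). Cox4i1 alone had an unadjusted p under 0.05, against 26.8 percent of all genes. DESeq2 called 1 member, Cox4i1, against 17.5 percent of all genes, and limma-voom called 0 against 4.17 percent. The libraries of the groups did not overlap for 31 members, 17 higher and 14 lower in NHD13, against 60.4 percent of all genes (30.1 percent higher and 30.3 percent lower).

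The subunit genes lay close together and close to 0. Their log2 fold changes ran from -0.30 (Cox4i1) to 0.46 (Ndufa1), with a median of 0.05 against 0.0013 for all genes. For 70 of the 74 the log2 fold change was within 0.25 of 0, 94.6 percent against 44.7 percent of all genes. The 95% interval of the log2 fold change lay inside 0.5 on either side of 0 for 65 of the 74 (87.8 percent, against 24.2 percent of all genes). The median absolute log2 fold change of the members was 0.08. Among the 3713 genes with the highest average level, which include 60 of the members, it was 0.18.

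**Figure D1:**
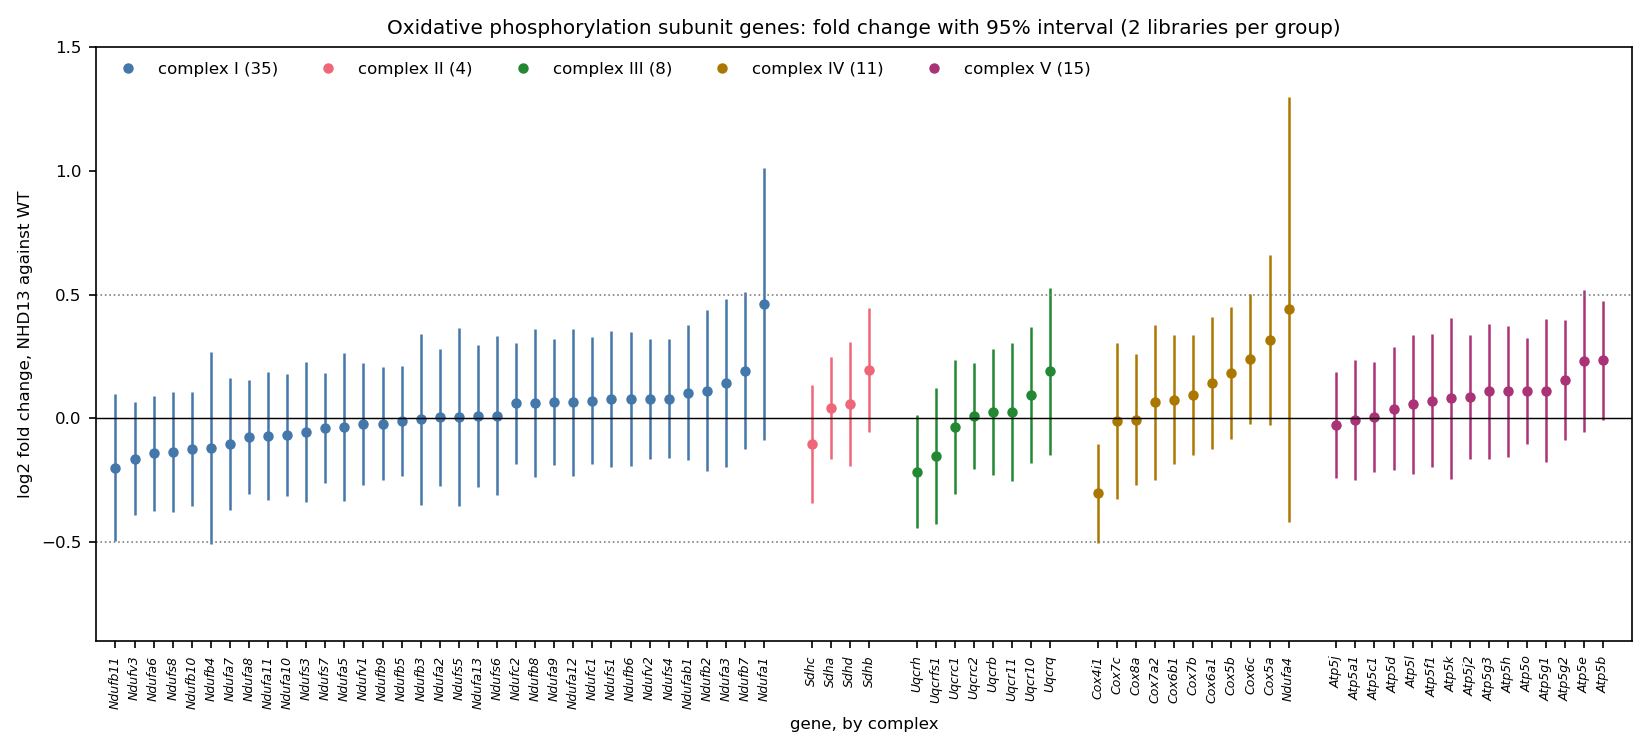
Log2 fold change of NHD13 against WT (y axis, points) with its 95% interval (vertical lines) for 73 of the 74 subunit genes (x axis), grouped by complex and ordered within it; dotted lines mark 0.5 on either side of 0. The interval lay clear of 0 for Cox4i1, and the widest interval was that of Ndufa4.

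Summed over the 74 genes, the level was 11600 and 11354 CPM (counts scaled to a common depth by the TMM-normalised library total) in WT and 12230 and 11340 CPM in NHD13. NHD13 library 1 stood highest and NHD13 library 2 lay just under both WT libraries, so the groups overlapped. The members made up 1.12 to 1.2 percent of the counts in each library, taken over the most counted transcript of each symbol. In these bulk samples, fewer cells of a type and less RNA per cell cannot be told apart.

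The median log2 fold change was 0.0038 in complex I, 0.05 in complex II, 0.02 in complex III, 0.09 in complex IV and 0.09 in complex V. Log2 fold changes were above 0 for 19 of 36 genes of complex I, 3 of 4 of complex II, 5 of 8 of complex III, 8 of 11 of complex IV and 13 of 15 of complex V; over all genes 49.9 percent were below 0. These medians have no test, and they depended on which NHD13 library was used. Without NHD13 library 1 the median was -0.0075 over all members, -0.0033 in complex IV and 0.02 in complex V. Without NHD13 library 2 it was 0.12 over all members, 0.16 in complex IV and 0.16 in complex V.

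NHD13 library 1 held the highest value of the 4 libraries for 49 of the 74 members (66.2 percent, against 30 percent of all genes). The share was 19 of 36 in complex I, 3 of 4 in complex II, 4 of 8 in complex III, 10 of 11 in complex IV and 13 of 15 in complex V. NHD13 library 2 held the highest value for 1 member. On the log2 scale, centred on the mean of the 4 libraries, the complex V median was -0.02 and -0.05 in WT, 0.11 in the first NHD13 library and -0.03 in the second. For complex IV it was 0.13 and -0.05 in NHD13 against -0.02 and -0.09 in WT. In each of complexes I to V the medians of the NHD13 libraries lay farther apart than those of the WT libraries. Between replicates the median absolute difference of the members' log2 levels was 0.06 in WT and 0.13 in NHD13. Over all genes tested it was 0.17 in WT and 0.20 in NHD13.

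**Figure D2:**
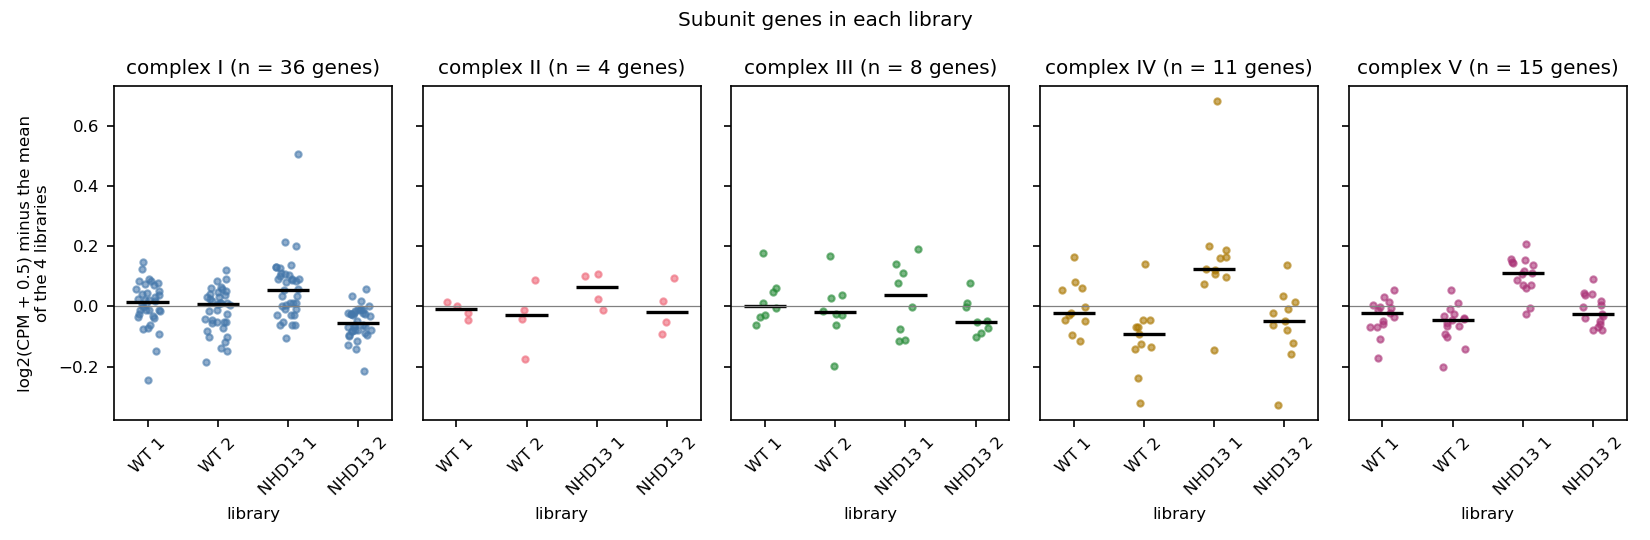
Each point is a subunit gene, its log2(CPM + 0.5) minus the mean of the 4 libraries (y axis) in each library (x axis), in a panel per complex, and black bars are medians. In each panel the median of NHD13 library 1 sits above the other 3 libraries. It is 0.06, 0.06, 0.04, 0.13 and 0.11 in complexes I to V. The highest point in the complex IV panel is Ndufa4.

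Marker genes of other cells and of the cell cycle also differed between the libraries. Late granulocyte genes, 8 of 8 of which passed the filter and none of which was at 0 in any library, summed to 2752 CPM in NHD13 library 1, while NHD13 library 2 had 361 and the WT libraries 317 and 273. The 6 genes of fast cycling cells, such as Mki67 and Top2a, summed to 627 and 499 CPM in WT, and to 1337 and 1034 in NHD13. The 6 of 7 T and NK cell genes that passed the filter summed to 22.05 and 20.1 CPM in WT, and to 156 and 180 in NHD13. Of these genes 4 had log2 fold changes above 0 and 2 below. On the centred log2 scale their median was -1.21 and -1.31 in WT, -0.41 in NHD13 library 1 and 2.18 in NHD13 library 2. Of their defining genes, Cd3e was at 36.3 CPM in NHD13 library 2 and under 1 CPM elsewhere. Of 8 stroma and endothelium genes 7 passed the filter, and these summed to 74.3 and 24.96 CPM in WT and 5.09 and 20.3 in NHD13. Of the 7, 5 had log2 fold changes below 0 and 2 above, and Col3a1 and Lepr were at 0 in NHD13 library 1. The 5 macrophage genes tested summed to 14.9 and 16.8 CPM in WT and 46.6 and 38.3 in NHD13, with 2 above 0 and 3 below. The 5 B cell genes tested summed to 73.6 and 80.8 CPM in WT and 89.6 and 96.6 in NHD13, with 4 above 0 and 1 below. The 6 erythroid genes summed to 37.1 and 15.9 CPM in WT and 38.0 and 41.0 in NHD13, with 3 above 0 and 3 below. The part of these marker genes in the subunit levels was not tested. Among the genes of the sort, Kit was at 991 to 1271 CPM and Slamf1, which encodes CD150, at 117 to 143 CPM across the 4 libraries. Ly6a, which encodes Sca-1, was at 273 and 200.2 CPM in WT and 131 and 77.7 in NHD13 (-1.18 ± 0.30, adjusted p 0.0921). Of the proteins sorted against, Cd34 transcripts were at 120 and 138 CPM in WT and 51.6 and 21.4 in NHD13. Flt3 transcripts were at 10.4 and 15.4 CPM in WT, 58.96 in the first NHD13 library and 4.33 in the second.

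Compared per kilobase of transcript, the level of the subunits ran from 13.8 CPM per kilobase for Ndufab1, the mitochondrial acyl carrier protein, to 629 for Cox4i1, as means of the 4 libraries. The complex medians per kilobase were 114 in complex I, 146 in complex II, 202 in complex III, 221 in complex IV and 235 in complex V. After Cox4i1 came Uqcrh at 500 CPM per kilobase, Atp5b at 489 and Atp5a1 at 401. The order of the members was nearly the same in the groups, with a Spearman correlation of 0.99 across the 74 genes between the WT and NHD13 means, which share annotation lengths and counting. Lengths are those of GENCODE M21 transcripts matched by RefSeq accession, and an annotated length longer than the transcript in use lowers the value.

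In complex I, the nuclear core subunits carry the flavin and the iron-sulfur clusters that lead electrons from NADH to ubiquinone. None was called, and the log2 fold changes of those described here spanned -0.14 to 0.08. Ndufv1, the flavin subunit where NADH is oxidised, was at 129 and 127 CPM in WT and 132 and 120 in NHD13. Ndufs1, the largest subunit, was at 145 and 144 CPM in WT and 164 and 142 in NHD13, and Ndufv2 at 156 and 161 against 175 and 160. The groups overlapped for these 3 genes. Ndufs8 was the lowest of these in fold, at 124 and 121 CPM in WT against 116 and 107 in NHD13, giving -0.14 ± 0.09 (log2 fold change ± SE; adjusted p 0.408). Ndufs7 lay just lower in both NHD13 libraries as well (99.8 and 98.8 against 96.1 and 97.4 CPM), while Ndufs3 (-0.06 ± 0.11) overlapped between groups.

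The 29 accessory subunits of complex I, which stabilise the core, had 16 log2 fold changes above 0 and 13 below. At the upper end stood Ndufa1, a small membrane subunit encoded on the X chromosome, at 39.1 and 40.8 CPM in WT but 66.1 and 43.96 in NHD13. Both NHD13 libraries were above WT, but they differed from each other by more than the lower one differed from WT. The log2 fold change was 0.46 ± 0.21 (adjusted p 0.244), and it was 0.15 without NHD13 library 1 and 0.73 without NHD13 library 2. At the lower end stood Ndufb11, also X-linked, at 127 and 119 CPM in WT and 115 and 98.6 in NHD13 (-0.20 ± 0.12, adjusted p 0.329). Within a library, where scaling drops out, the ratio of Ndufa1 to Ndufb11 counts was 0.308 and 0.343 in WT against 0.574 and 0.446 in NHD13. Since these genes were named as the ends of the range in complex I, a gap in their ratio follows from that choice. Ndufv3, an accessory subunit beside the flavin site, had -0.16 ± 0.09 and Ndufb7, an accessory membrane subunit, 0.19 ± 0.12. Neither was called (adjusted p 0.307 and 0.376).

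Complex II is encoded by nuclear genes alone. Its catalytic subunits are the flavoprotein Sdha and the iron-sulfur protein Sdhb, and Sdhc and Sdhd anchor them in the membrane. Sdha was at 410 and 398 CPM in WT and 416 and 415 in NHD13, slightly higher in both NHD13 libraries (0.04 ± 0.08, with a 95% interval of -0.16 to 0.25). Sdhb was at 169 and 152 CPM in WT and 184 and 183 in NHD13, and Sdhc at 108 and 113 against 106 and 99.98. The groups did not overlap for Sdhb and Sdhc either, Sdhb being higher (0.20 ± 0.10, adjusted p 0.269) and Sdhc lower (-0.10 ± 0.09, adjusted p 0.523) in NHD13, but neither passed the test. The fourth subunit gene, Sdhd, overlapped between groups (0.06 ± 0.10).

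In complex III, Uqcrfs1 is the Rieske iron-sulfur protein that takes electrons from ubiquinol. It was at 185 and 160 CPM in WT and 155 and 155 in NHD13 (-0.15 ± 0.11, adjusted p 0.420), and WT library 1 stood above the other 3. The core proteins Uqcrc1 (-0.03 ± 0.10) and Uqcrc2 (0.0084 ± 0.083) overlapped between groups. Uqcrh, the hinge protein that helps bind cytochrome c1, was at 282 and 306 CPM in WT and 253 and 254 in NHD13. Both NHD13 libraries were lower, and nearly equal to each other, with a log2 fold change of -0.22 ± 0.09 that was not called (adjusted p 0.207). Uqcrq had 0.19 ± 0.13 and Uqcr10 0.10 ± 0.11, both overlapping between groups.

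In complex IV the log2 fold changes ran from -0.30 to 0.44, with Ndufa4 at the upper end. Cox4i1, the main isoform of the nuclear subunit that sits on the catalytic core and binds ATP, was at 522 and 514 CPM in WT and 422 and 417 in NHD13. The libraries of each group were nearly equal and the groups lay well apart. The log2 fold change was -0.30 ± 0.08 (95% interval -0.51 to -0.10) and the adjusted p was 0.0961 by edgeR, 0.0101 by DESeq2 and 0.0973 by limma-voom. With any 1 library left out the log2 fold change ran from -0.32 to -0.29. The other isoform, Cox4i2, best known from lung and from low oxygen, was at 6.25 and 7.01 CPM in WT and 4.83 and 8.53 in NHD13, with the groups overlapping.

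Cox5a, which assembles with Cox4i1 on the catalytic core, differed in the opposite direction. It was at 130 and 104 CPM in WT and 149 and 144 in NHD13 (0.32 ± 0.13, adjusted p 0.213), and the WT libraries were farther apart than the lower NHD13 library was from the higher WT one. The ratio of Cox4i1 to Cox5a counts within a library was 4.01 and 4.92 in WT and 2.84 and 2.91 in NHD13. Both genes were among the extremes of the complex in opposite directions, so this ratio is not separate support. Among the small subunits, Cox6c was at 126 and 122 CPM in WT and 155 and 138 in NHD13, Cox5b at 86.96 and 81.6 against 101 and 90.6, and Cox6a1 at 157 and 153 against 182 and 160. In each of these 3 both NHD13 libraries were above both WT libraries, and none was called. Cox7c (-0.01 ± 0.12) overlapped between groups.

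Ndufa4 stood apart in 1 library. It was at 187 and 172 CPM in WT and 161 in NHD13 library 2, but at 326 in NHD13 library 1. Of all 74 genes it had the largest difference between the NHD13 libraries, 1.01 on the log2 scale. Its log2 fold change of 0.44 ± 0.33 (adjusted p 0.453) became -0.14 without NHD13 library 1 and 0.86 without NHD13 library 2. Relative to Cox6c, another subunit of the complex, the count ratio was 1.49 and 1.41 in WT, 2.10 in the first NHD13 library and 1.17 in the second. The library with high Ndufa4 and Ndufa1 was the one in which late granulocyte genes summed to 2752 CPM, and a link between them was not tested.

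**Figure D3:**
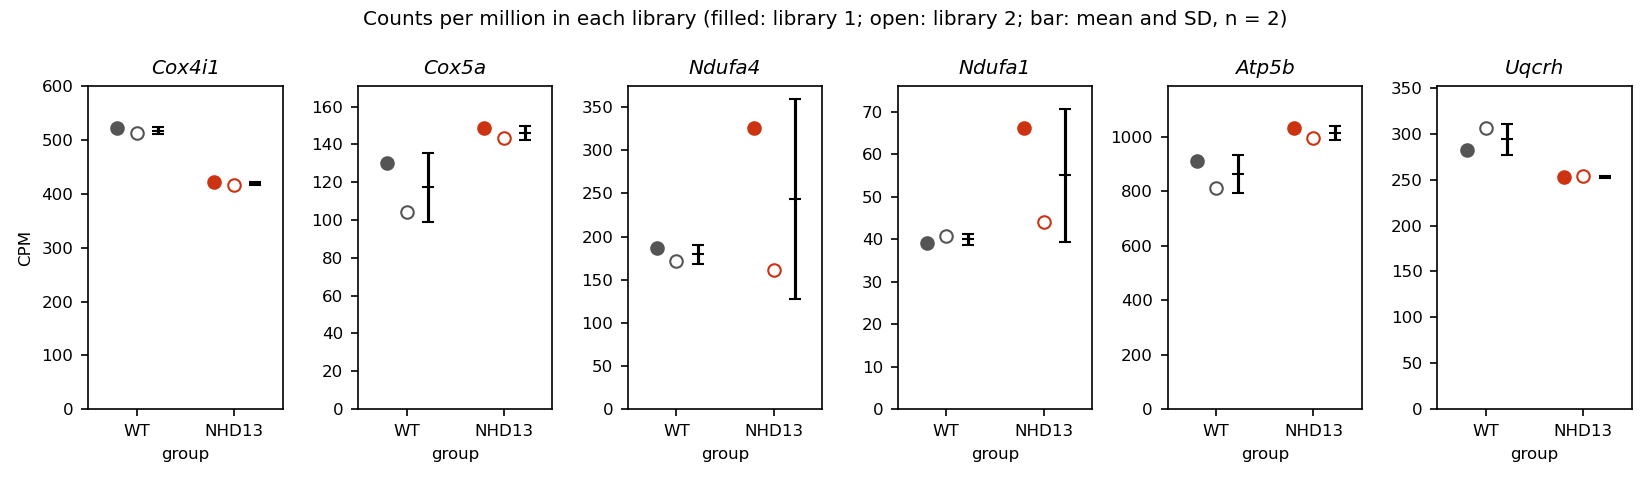
CPM (y axis, from 0) of 6 subunit genes in each library, with filled points for library 1 and open points for library 2 of a group, and bars for the mean and SD (n = 2). Cox4i1 separates the groups with little spread (522 and 514 against 422 and 417 CPM), while Ndufa4 and Ndufa1 are set apart by NHD13 library 1 (326 and 66.1 CPM).

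In complex V, the alpha and beta subunits Atp5a1 and Atp5b form the catalytic head. Atp5b was at 911 and 812 CPM in WT and 1031 and 994 in NHD13, higher in both NHD13 libraries (0.23 ± 0.09, 95% interval -0.006 to 0.47, adjusted p 0.194). Atp5a1 was at 958 and 1029 CPM in WT and 1040 and 938 in NHD13 (-0.0068 ± 0.094), and the groups overlapped. The proteins are present in equal number in the head, and the ratio of Atp5b to Atp5a1 counts was 0.951 and 0.789 in WT and 0.991 and 1.06 in NHD13. Since these genes were among the extremes of the complex in opposite directions, this ratio is not separate support. Of the central stalk, the gamma subunit gene Atp5c1 had 0.0045 ± 0.086, and the epsilon subunit gene Atp5e was at 110 and 120 CPM in WT and 144 and 126 in NHD13 (0.23 ± 0.11, adjusted p 0.261).

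The c ring turns with the flow of protons and is built of a single protein made from 3 genes with different import sequences. Atp5g3 was at 158 and 140 CPM in WT and 166 and 155 in NHD13, Atp5g1 at 110 and 103 against 123 and 107, and Atp5g2 at 67.6 and 70.5 against 79.2 and 74.8. Their log2 fold changes were alike, at 0.11 ± 0.11, 0.11 ± 0.11 and 0.16 ± 0.09, and none was called. Summed over the 3 genes the level was 335 and 313 CPM in WT and 369 and 337 in NHD13. In the peripheral stalk, which keeps the head from turning, the 4 genes had log2 fold changes of -0.03 (Atp5j) to 0.11 (Atp5o), and the 3 small membrane subunit genes had 0.06 to 0.09.

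Of 43 assembly factor genes, which build the complexes without staying in them, edgeR called none, against 4.28 percent of all genes tested. At an unadjusted p under 0.05 there was 1, against 26.8 percent of all genes. The median log2 fold change of the assembly factor genes was -0.08, with 24 below 0. The smallest p was that of the complex II factor gene listed as 1110058L19Rik (Sdhaf4), at 55.7 and 60.7 CPM in WT and 46.4 and 45.3 in NHD13 (-0.34 ± 0.10, adjusted p 0.125). Surf1, a complex IV assembly factor gene, had -0.23 ± 0.11 (adjusted p 0.241). Of 17 tricarboxylic acid cycle genes none was called and none had an unadjusted p under 0.05, with a median of 0.04; Mdh2 had 0.23 ± 0.10 and Pdha1 -0.22 ± 0.09. Of 77 genes of the mitochondrial ribosome, which translates the subunits encoded in the organelle, none was called, 2 were higher and 2 lower at an unadjusted p under 0.05, and the median was 0.04. Mrpl52 had -0.31 ± 0.10 and Mrpl37 0.30 ± 0.10.

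Of 19 genes of electron carriers and coenzyme Q synthesis 1 was called, against 4.28 percent of all genes tested. Adck3, also named Coq8a, encodes a kinase-like protein of coenzyme Q synthesis and fell from 352 and 349 CPM in WT to 105 and 158 in NHD13 (log2 fold change -1.42 ± 0.21, adjusted p 0.0397). It missed the threshold with library totals only (adjusted p 0.0510), with summed transcripts (0.0534) and with the replicate number as a block (0.0713). For fits that leave 1 library in a group, just the log2 fold change of a gene is given, not whether the gene was called. For the called genes of this and the later lists, the fit without NHD13 library 2 is not given. The log2 fold change of Adck3 was -1.42 without WT library 1, -1.42 without WT library 2 and -1.14 without NHD13 library 1. Coq10b, for a coenzyme Q binding protein, had -1.05 ± 0.28 (adjusted p 0.09997). Cycs, the gene of cytochrome c, was at 59.3 and 53.0 CPM in WT and 85.9 and 66.3 in NHD13 (0.44 ± 0.16, adjusted p 0.168).

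Against 4.28 percent of all genes tested, 1 of 16 genes of carriers and quality control was called, namely Ucp2. It encodes an inner membrane carrier of the uncoupling protein family, and it rose from 202 and 174 CPM in WT to 463 and 371 in NHD13 (1.149 ± 0.15, adjusted p 0.0323). It missed the threshold with the replicate number as a block (adjusted p 0.0519). The log2 fold change was 1.25 without WT library 1, 1.05 without WT library 2 and 0.99 without NHD13 library 1. The ADP/ATP carriers exchange the product of complex V across the membrane, and the ratio of Slc25a4 to Slc25a5 counts was 0.357 and 0.315 in WT and 0.189 and 0.242 in NHD13. Slc25a4 had -0.42 ± 0.10 (adjusted p 0.0884) and Slc25a5 0.24 ± 0.11 (adjusted p 0.257). Both carrier genes were chosen after their values were seen, so their ratio is not separate support. Park2, for the mitophagy ligase parkin, had -1.07 ± 0.23 (adjusted p 0.0692).

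Of 12 isoforms and paralogs outside the subunit list, 8 passed the filter and none was called by edgeR. Against 26.8 percent of all genes, 1 had an unadjusted p under 0.05. That was Cox7a2l, a paralog of Cox7a2, at 314 and 339 CPM in WT and 235 and 262 in NHD13 (-0.39 ± 0.10, adjusted p 0.0950). Ndufa4l2, the relative of Ndufa4 induced by low oxygen, was at 5.10 CPM in the first WT library and 0.246 in the second, against 0.233 and 0.327 in NHD13. Its log2 fold change of -3.24 was 0.18 without WT library 1. Among 18 regulators of mitochondrial biogenesis none was called, with 1 higher and 1 lower at an unadjusted p under 0.05: the coactivator gene Ppargc1a was at 7.82 and 8.46 CPM in WT and 3.55 and 4.31 in NHD13 (-1.05 ± 0.25, adjusted p 0.0855), and Polg, the mitochondrial DNA polymerase gene, had 0.46 ± 0.14 (adjusted p 0.122).

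Glycolysis and the cytosolic ribosome were taken for comparison. Of 17 glycolysis genes tested, 1 was called, against 4.28 percent of all genes. Their median was -0.22, and 9 of the 17 were within 0.25 of 0 (52.9 percent, against 44.7 percent of all genes). Aldoc, an aldolase isoform gene, was at 32.1 and 37.0 CPM in WT and 18.2 and 17.9 in NHD13 (-0.94 ± 0.14, adjusted p 0.0407). It missed the threshold with summed transcripts (adjusted p 0.0539) and with the replicate number as a block (0.1002). The log2 fold change was -1.05 without WT library 1, -0.83 without WT library 2 and -0.94 without NHD13 library 1. Hk1, for a hexokinase, had 0.36 ± 0.10 (adjusted p 0.101). For all 77 cytosolic ribosomal protein genes the fold change was below 0 (median log2 value -0.23). None was called by edgeR, and 44 had an unadjusted p under 0.05, against 26.8 percent of all genes. Rplp1 had -0.50 ± 0.09 (adjusted p 0.0501) and Rpl14 -0.50 ± 0.09 (0.0579). Of the genes named from the mitochondrial, glycolysis and ribosomal lists, DESeq2 called Coq10b, Slc25a4, Park2, Cox7a2l, Ppargc1a, Hk1, Rplp1 and Rpl14, which edgeR did not. It called 17.5 percent of all genes tested, and its calls among the unnamed genes of these lists are not given. Rplp1 and Rpl14 were also called by edgeR without a filter, with library totals only and with at least 1 CPM in both libraries of a group, and Rplp1 by limma-voom. The difference between these lists and the subunits has no test.

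**Figure D4:**
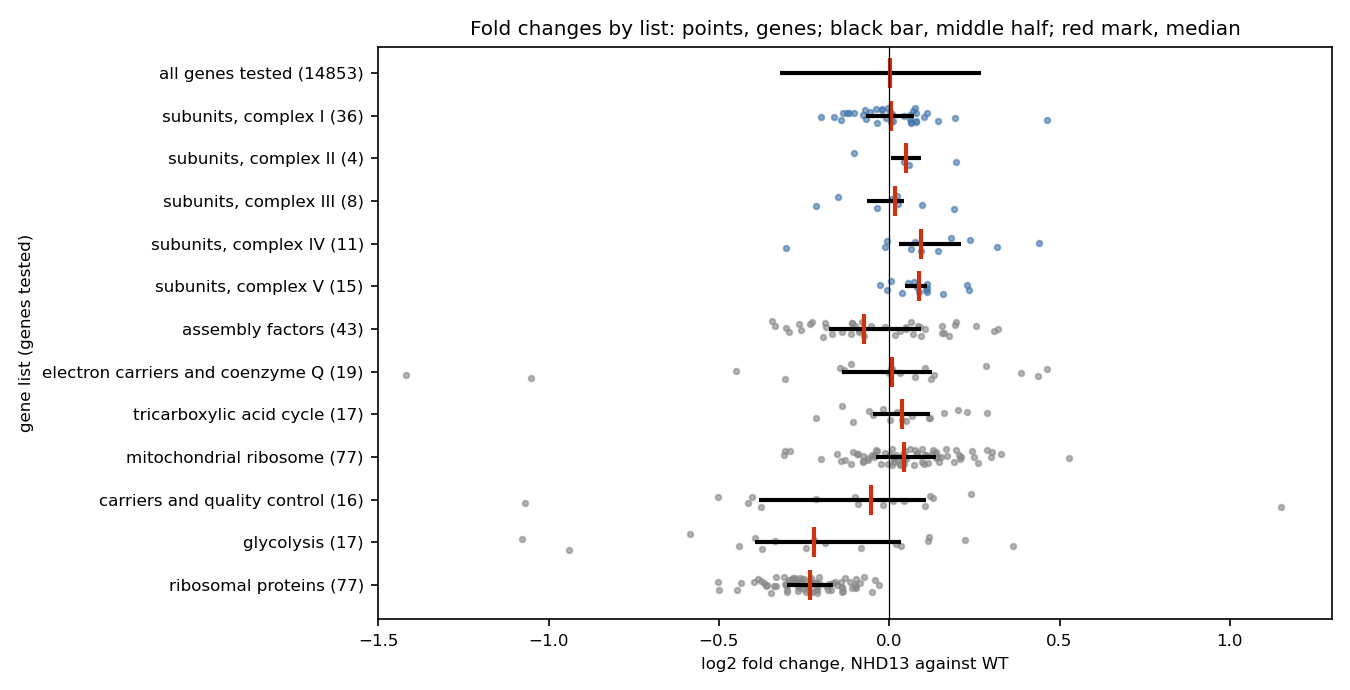
Log2 fold change of NHD13 against WT (x axis) for the subunits of each complex (blue points), other lists (grey points) and all genes tested, with black bars for the interquartile range and red marks for medians; points of all genes are not drawn. Subunit medians lie between 0.0038 and 0.09, those of glycolysis and ribosomal proteins at -0.22 and -0.23.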

How the data were processed

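RNA of sorted cells was extracted with Trizol and amplified with a SMARTer low-input kit, per the labels' protocols. The submitters' processing notes name Bowtie 0.12.2 and the build mm9. How reads were counted, by strand and where they align repeatedly, is not given in the sources used here. The values the authors deposited are raw counts per RefSeq transcript. Many subunit genes have near-identical processed pseudogenes, so their counts may be split or shared. None had counts identical to another symbol.

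Each of 24016 symbols was reduced to its most counted transcript over the 4 libraries (33018 transcripts; 9 members had more than 1). Library totals were then 42664018 and 37070939 (WT) and 35025974 and 48423689 (NHD13). The main test was edgeR 4.0.16 (under R 4.3.3; default filter, TMM, robust quasi-likelihood, all 4 libraries), with Benjamini-Hochberg adjustment over all genes and a threshold of 0.05. Alternatives were DESeq2 1.42.0, limma-voom (limma 3.58.1), other scalings and filters, a replicate block, left-out libraries and summed transcripts.

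The members and lists were chosen with earlier results of these data known. Named members were the core subunits, all of complex II, and the 2 highest and 2 lowest fold changes of each other complex; from other lists, the 2 smallest p-values and called genes. Cycs, Slc25a4, Slc25a5, Cox4i2 and the small subunits given by library values were chosen after their values were seen. One gene that the rule names is not reported here.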

Additional observations from a re-analysis of the deposited data

How the results depend on the processing

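Left-out libraries gave 0 to 990 calls over all genes, against 636 in the main test, 0 to 1 calls of subunit genes, and medians of -0.0075 to 0.1222 over all members, -0.0221 to 0.0465 in complex I, 0.0164 to 0.0966 in complex II, -0.0136 to 0.05 in complex III, -0.0033 to 0.1647 in complex IV and 0.0229 to 0.1649 in complex V. Over all genes 1138 were called without a filter, 1066 with at least 1 CPM in both libraries of a group, 2604 by DESeq2 and 402 with summed transcripts; DESeq2 called 1 subunit gene and each of the others 0. With the replicate number as a block 107 genes and 0 subunit genes were called. Same-numbered libraries deviated with a correlation of -0.12 across genes. With 2 libraries per group, this value cannot tell whether same-numbered libraries shared a preparation. A block of crossed numbers, chosen after seeing the data, gave 647 calls over all genes and 0 of subunit genes.

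The sign of some log2 fold changes was not stable. With library totals only Atp5c1 was -0.0062 and Uqcrc2 -5e-04, and with at least 1 CPM in both libraries of a group Atp5c1 was -0.0037. Over left-out libraries the value ran from -0.0198 to 0.1805 for Ndufs1, from -0.1505 to 0.0405 for Ndufs3, from -0.0812 to 0.0481 for Ndufv1, from -0.0155 to 0.1427 for Sdhd, from -0.1304 to 0.0694 for Uqcrc1, from -0.0292 to 0.0419 for Uqcrc2, from -0.1209 to 0.1053 for Cox7c, from -0.1438 to 0.8649 for Ndufa4, from -0.0736 to 0.0712 for Atp5a1, from -0.0462 to 0.068 for Atp5c1 and from -4.1642 to 0.1826 for Ndufa4l2. The cause was not tested. Subunit genes had 496 or more reads in each library, and the SE was 0.15 for Ndufb4, which had the fewest, and 0.08 for Cox4i1. The largest SE of the subunit genes was 0.33, for Ndufa4, which had 6276 or more reads in each library.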
